A study of Mus musculus with 12 samples.

Results

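Malat1, Norad and Neat1 are 3 long noncoding RNAs that carried peaks of N4-acetylcytidine (ac4C) pull-down in mouse peritoneal macrophages. They were chosen by the measured peaks themselves: every peak that the authors' tables assigned to 1 of the 3 symbols was taken, in 6 peak lists. This gave 49 peaks with 86 summits, of 4753 peaks and 5273 summits in all, and 3 of 2102 genes with a peak. Malat1 (ENSMUSG00000092341) held 32 peaks with 61 summits, Norad (ENSMUSG00000102869) 7 peaks with 12 summits and Neat1 (ENSMUSG00000092274) 10 peaks with 13 summits. Because peaks chose the members, their presence and their recurrence over time are given as a description, with no test.

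In ac4C an acetyl group sits on the base of a cytidine, placed there by NAT10, an acetyltransferase that modifies ribosomal and transfer RNA, and the mark has been mapped on messenger and noncoding RNA with antibodies. Malat1 is a very abundant nuclear RNA of the nuclear speckles, where splicing factors gather. Neat1 is the RNA scaffold of the paraspeckles and is made in a short and a long form. Norad is a mainly cytoplasmic RNA that binds the Pumilio proteins, repressors of messenger RNA.

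The study placed cultured peritoneal macrophages in IFN-γ, a cytokine that activates them, for 0, 24 or 48 h. Each time had 2 samples of ac4C-bound RNA and 2 of total RNA, 12 samples in 6 groups. The 6 peak lists are 2 per time, and no label or header ties a list to its sample, so the lists were not paired across times. Strain, sex, age and genotype are not given in the labels. Whether the 2 samples of a group were separate animals or cultures is not stated either, and the spread between lists may be technical. All groups beyond 0 h had IFN-γ, and no group was kept for 24 or 48 h without it, so IFN-γ and time in culture cannot be told apart. These are bulk samples, in which fewer cells of a type and less RNA per cell cannot be told apart.

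Peaks numbered 1151 and 946 in the 0 h lists, 725 and 646 at 24 h, then 674 and 611 at 48 h. The depth of the control library that the peaks were called against, read from the lists' lowest background and set to 100% in the deepest list, was 100% and 91.4% at 0 h, 73.7% and 80.8% at 24 h, then 57.2% and 44.5% at 48 h. Pull-down depth on its own scale was 91.5% and 78.0% at 0 h, 100% and 98.0% at 24 h, then 78.0% and 68.5% at 48 h. The shorter lists of 24 and 48 h therefore went with shallower control libraries, and the part of depth in a missing peak was not tested beyond the scaling given below. The cell label was set against marker genes. A peak was found on 4 of 15 macrophage markers (Itgam, Mrc1, Fcer1g and Lyz2), on 1 of 7 mesothelial markers (Wt1, in 48 h list 2), and on none of the listed markers of B cells, T cells, fibroblasts, mast cells, dendritic cells or neutrophils. Each of these markers had its peak in 1 or 2 lists only, and 8.14% of the protein-coding genes that RefSeq lists had a peak in any list. A marker without a peak is no measure of its level.

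On Malat1, the peaks of the 6 lists merged at an overlap of 1 base into 5 regions, and all 5 held a peak at 0, 24 and 48 h. Norad had 3 merged regions, 1 of them present at all 3 times, and Neat1 had 4, of which 2 were. Across all 2808 merged regions of the lists, 9.65% had a peak at all 3 times, which is the background for these 8 of 12. A peak in all 6 lists was found in 4 of the 12 regions, all on Malat1, against a background of 1.96% over all regions. Another 4 of the 12 regions came from 1 list alone. Because the regions were chosen by their peaks, nothing beyond the count is read from these shares. All 86 summits belonged to peaks whose centre the authors placed in the last exon of the RNA. On each RNA that label covered every position mapped below, from the 5′-most to the 3′-most, so it marks no preference for the 3′ end.

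Malat1 lies on chromosome 19, on the minus strand according to RefSeq, so its regions are numbered here in descending coordinates (GRCm39), and distances run from the 5′-most base under a Malat1 peak, since no annotation of the gene's bounds in this build was used here. Region 1, chr19:5850108-5852671, spanned 2563 bases and was present in all 6 lists. Region 2, chr19:5849451-5849960, began 2711 bases from the 5′-most covered base, spanned 509 bases and was in all 6 lists. Region 3, chr19:5848202-5849206, began at 3465 bases, spanned 1004 bases and was in all 6 lists. These 3 regions and the short region 5, chr19:5846144-5846416, are the 4 that no list lacked. Region 4, chr19:5847238-5847727, had a peak only in list 1 of each time, so it recurred at all 3 times on 3 of the 6 lists.

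**Figure D1:**
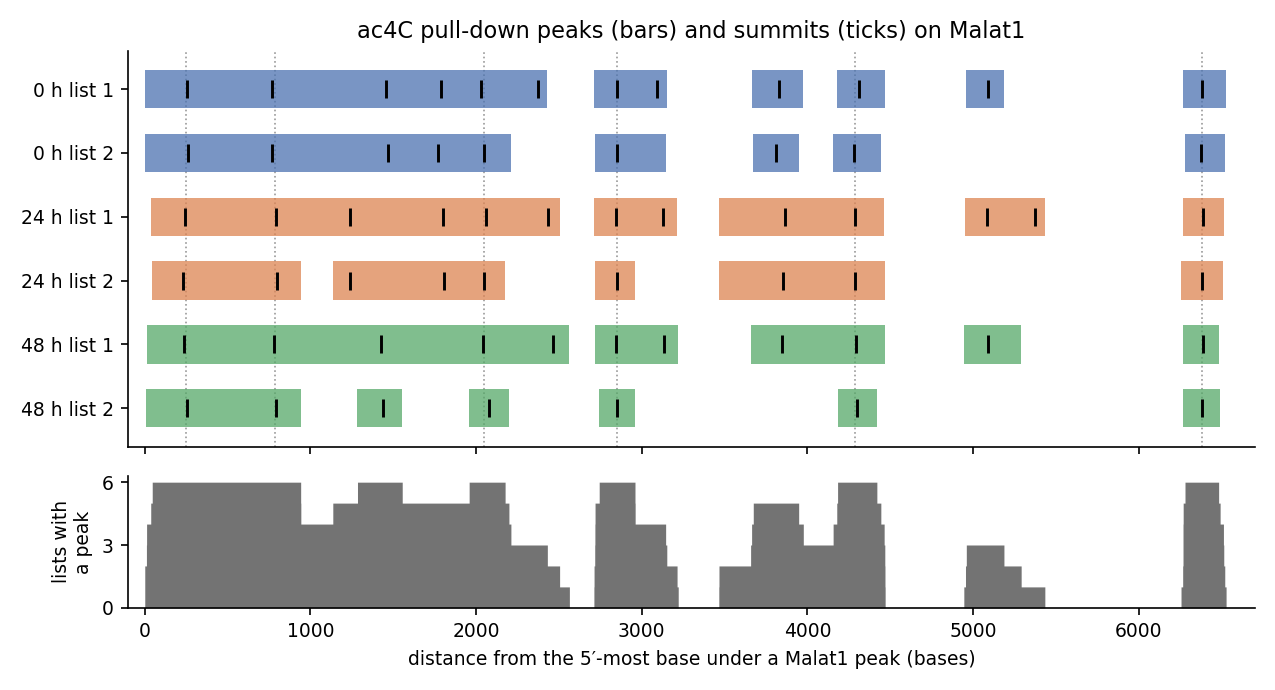
Peaks on Malat1 in each list (bars, coloured by hour) with their summits (ticks), against the distance in bases from the 5′-most base under a Malat1 peak; the lower panel counts the lists with a peak at each base, and dotted lines mark the 6 summit positions found in all 6 lists. The stretch around position 1 is covered in all 6 lists, and region 4 is seen in list 1 of each time only.

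Peaks covered 3961 and 3439 bases of Malat1 at 0 h, 4691 and 3435 bases at 24 h, then 4429 and 2120 bases at 48 h. The time means were 3700 ± 369 bases at 0 h, 4063 ± 888 bases at 24 h and 3275 ± 1633 bases at 48 h (SD, n = 2 lists each), and the ranges of all 3 times overlapped. Ranked by covered bases among all genes of a list, Malat1 was first in 5 lists and second in 48 h list 2, after Lrrc58 with 2223 bases. Of the 4837 bases of Malat1 covered in any list, 2039 (42.2%) lay under a peak in all 6 lists and 80.7% at all 3 times. Over all peaks of the lists these shares of covered bases were 1.76% and 8.68%. The longest run shared by all 6 lists was 896 bases, chr19:5851730-5852626, toward the 5′ end of region 1.

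Within region 1 the lists differed in how the peaks were broken up. In 0 h lists 1 and 2, 24 h list 1 and 48 h list 1 a single peak ran through most of the region, and in 24 h list 2 and 48 h list 2 it fell into separate peaks. The peak of 48 h list 1, 2552 bases long, was the longest of all 4753 peaks, while the longest peak on no member had 2223 bases. Peaks with 4 or more summits numbered 10 in all lists together, and 4 of these lay on the 3 RNAs.

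Summits lying within 100 bases of their neighbour were taken as 1 position, which gave 14 positions on Malat1, 5 on Norad and 7 on Neat1. Of these 26, 14 had a summit at all 3 times (10 on Malat1, 2 on Norad and 2 on Neat1), against 8.75% of all 3247 positions. A summit in all 6 lists was seen at 6 positions, all on Malat1, against 1.63% of all positions. Position 6 from the 5′ end counted in 48 h list 2 on a weak summit. That summit had a fold enrichment of 1.44 and ranked 600 of the list's 673 summits by p. In the other lists position 6 had a fold enrichment of 1.83 to 3.41. The 6 Malat1 positions are numbers 1, 2, 6, 8, 11 and 14 from the 5′ end, centred 247, 786, 2049, 2849, 4289 and 6383 bases from the 5′-most covered base. Summits of the 6 lists fell close together at these positions: within 30 bases at position 1 (5852408 to 5852438), 34 bases at position 2 (5851870 to 5851904), 52 bases at position 6, 4 bases at position 8 (5849821 to 5849825), 32 bases at position 11 and 10 bases at position 14 (5846284 to 5846294). Their median spread was 31.0 bases, and that of the other 47 positions found in all 6 lists was 46.0 bases. The window of 100 bases that defines a position itself keeps its summits close, so these spreads are a description.

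The 8 remaining Malat1 positions were not in every list. Position 3, at 5851432 to 5851433, had a summit only in both 24 h lists, and position 4, at 5851204 to 5851248, had one in both 0 h lists and both 48 h lists but in neither 24 h list. Neither place was bare of peaks elsewhere: position 4 lay under a peak without a summit of its own in both 24 h lists, and position 3 under a peak in both 0 h lists and in 48 h list 1. Position 5, at 5850863 to 5850899, had a summit in both 0 h and both 24 h lists and in neither 48 h list, where 48 h list 1 still had a peak over it and 48 h list 2 did not. The 24 h list 2 summit at position 5 had a q of 1. These 3 of the 26 positions had a summit in both lists of 1 time and in neither list of another, against a background of 12.8% of all 3247 positions, so their share was near the background. Position 10 had a summit in every list except 48 h list 2, positions 7, 9 and 12 only in list 1 of each time, and position 13 in 24 h list 1 alone. Fold enrichment was low at positions 7 (1.43 to 2.11) and 9 (1.46 to 1.63), both counted as present at all 3 times. By p, position 9 ranked 1020 of 1295 summits in 0 h list 1, 516 of 821 in 24 h list 1 and 517 of 718 in 48 h list 1. Position 7 ranked 1224, 693 and 190 in the same lists.

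Fold enrichment, the authors' ratio of pull-down over background at a summit, was moderate on Malat1, with a median of 2.41 (1.38 to 4.59) over its 61 summits, against a median of 2.95 over all summits of the lists. At position 1 it was 3.04 and 3.66 at 0 h, 2.41 and 2.29 at 24 h, then 3.40 and 2.11 at 48 h. Both 24 h lists were lower than both 0 h lists there, and 48 h spanned nearly the whole range. At position 11 it was 1.89 and 2.14 at 0 h, 2.34 and 2.28 at 24 h, then 3.63 and 2.10 at 48 h. Here both 24 h lists were higher than both 0 h lists, and 48 h again overlapped both other times.

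At the other positions the times overlapped. Position 8 had a fold enrichment of 2.64 and 3.78 at 0 h, 3.35 and 3.41 at 24 h, then 4.59 and 2.72 at 48 h. Position 14 was the most even, at 2.73 and 2.52 at 0 h, 3.12 and 2.52 at 24 h, then 2.52 and 2.70 at 48 h. Position 2 ran between 2.23 and 3.19 over the 6 lists, and position 6 between 1.44 and 3.41, with both of these extremes in the 48 h lists. At positions 1, 6, 8 and 11 the 48 h lists lay further apart from each other than the means of any pair of times.

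Counted over the 6 positions, fold enrichment of the 24 h lists did not overlap that of the 0 h lists at 2 (1 higher, 1 lower), against 43.4% of the 53 positions found in all 6 lists. No Malat1 position separated 48 h from 0 h, where 41.5% of the 53 did, and none separated 48 h from 24 h, where 39.6% did. The highest fold enrichment stood in 48 h list 1 at 3 of the 6 Malat1 positions. No test was run at these positions, because their peaks chose the members.

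**Figure D2:**
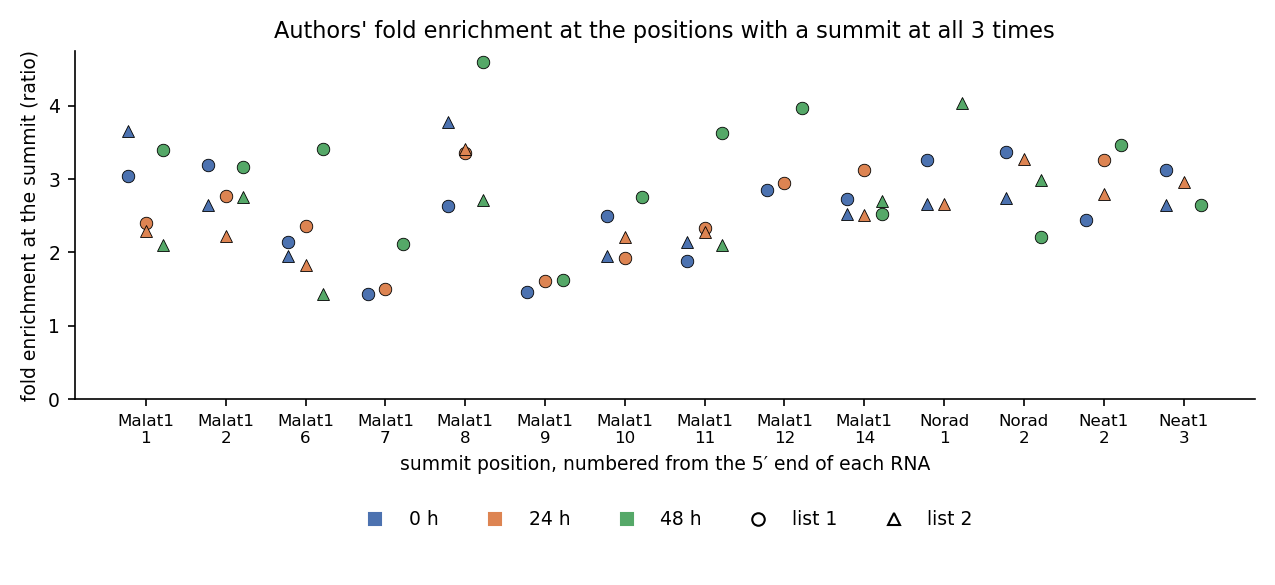
Authors' fold enrichment (ratio) at the 14 summit positions with a summit at all 3 times, per list (circles list 1, triangles list 2, colours the hour); a missing symbol means no summit in that list. Values lie between 1.43 and 4.59, and at Malat1 positions 6, 8 and 11 the 48 h lists are far apart.

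The number of pull-down fragments at a summit and the background coverage it was set against, called input here, were worked back from fold enrichment and p. Input was a whole number at 52 of the 86 summits and a fraction at the others. It thus need not be the control coverage at the summit itself. Among the 6 positions found in all 6 lists, it was a fraction in some lists at positions 6 and 8 only. At position 1 the pull-down had 673 and 615 fragments at 0 h, 928 and 885 at 24 h, then 1168 and 833 at 48 h. Input coverage at the same summits was 96 and 78 fragments at 0 h, 113 and 127 at 24 h, then 100 and 102 at 48 h. Position 1 thus had the most pull-down fragments of the 6 positions in every list, and position 6 had the fewest, with 215 to 331. Fragments at position 8 numbered 457 and 394 at 0 h, 458 and 429 at 24 h, then 623 and 415 at 48 h, and those at position 14 numbered 391 to 567.

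To set lists of unequal depth side by side, both coverages were divided by the genome background of their list. Pull-down coverage at position 1 was then 360 and 386 times background at 0 h, 454 and 442 times at 24 h, then 732 and 594 times at 48 h. Input coverage at position 1 was 117 and 104 times background at 0 h, 188 and 192 times at 24 h, then 214 and 280 times at 48 h. Both coverages at position 1 were thus higher at each later time with no overlap, and the mean input was 111 ± 9.2 times background at 0 h, 190 ± 3.3 times at 24 h and 247 ± 47.1 times at 48 h (SD, n = 2 lists each). Position 2 had the same order: its input averaged 111 ± 19.7 times background at 0 h, 156 ± 18.9 times at 24 h and 181 ± 4.7 times at 48 h (SD, n = 2). Before the division, input coverage at position 2 was 79 and 93 fragments at 0 h, 86 and 112 at 24 h, then 83 and 67 at 48 h. The order thus appeared only after dividing by background. Each of these values at positions 1 and 2 had a single solution. At position 2 the pull-down averaged 321 ± 14.9, 389 ± 13.2 and 540 ± 39.6 times background at 0, 24 and 48 h (SD, n = 2).

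Pull-down coverage over background was higher in both 48 h lists than in both 0 h lists at 6 of 6 Malat1 positions, and the same held for 48 h against 24 h. Among all 53 positions found in all 6 lists, these 6 included, 64.2% and 79.2% did so. Most recurrent positions thus stood in the same order. Both 24 h lists were higher than both 0 h lists in pull-down at 3 of 6 Malat1 positions, against 32.1% of the 53. For input coverage over background, both 24 h lists were above both 0 h lists at 3 of 6 positions (34.0% of the 53), and both 48 h lists above both 0 h lists at 3 of 6 (39.6% of the 53). The log2 ratio of the mean pull-down coverage, 48 h over 0 h, had a median of 0.56 over the 6 Malat1 positions (0.21 to 0.83), against 0.26 over the other 47. The same log2 ratio of input coverage had a median of 0.37 on Malat1 (0.16 to 1.16), against 0.09 over the other 47, and that of fold enrichment 0.10 (-0.28 to 0.51), against 0.12. At position 1 the log2 ratio of input, 1.16, was larger than that of pull-down, 0.83, and that of fold enrichment was -0.28, with overlapping lists. The 6 positions share 1 RNA and the same libraries and are not independent of each other. At positions 6, 8, 11 and 14 the coverages of some lists had more than 1 solution, of which the closest was taken.

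**Figure D3:**
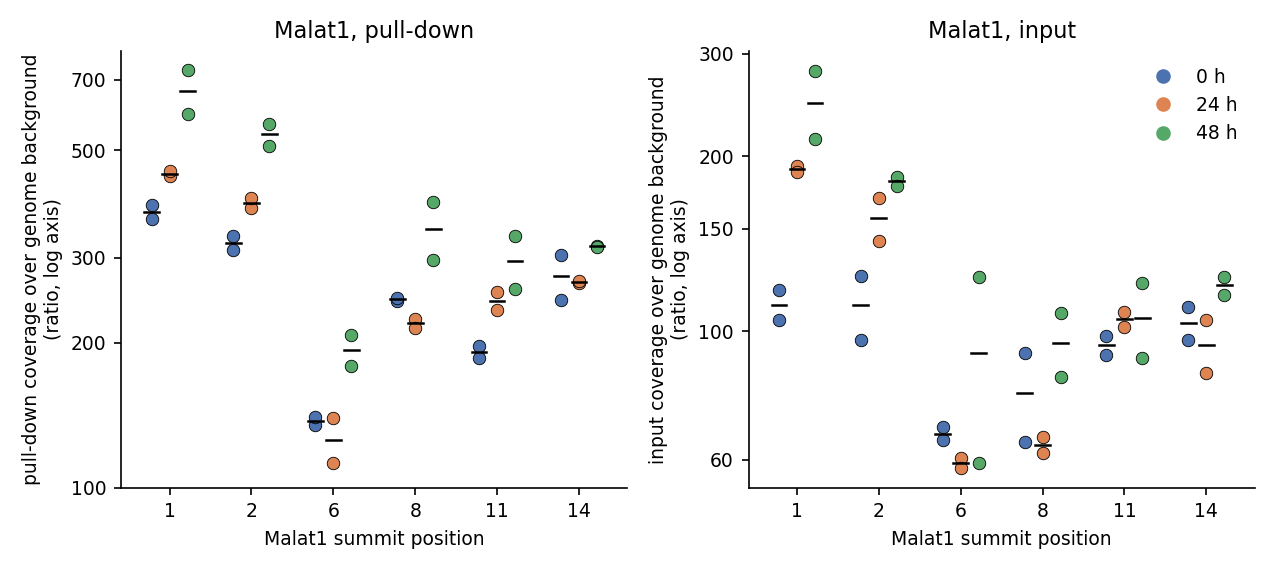
Pull-down coverage (left) and input coverage (right) at the 6 Malat1 summit positions found in all 6 lists, each divided by the genome background of its list (ratio, log axis); points are lists, lines the mean of both lists of a time. In the left panel the 48 h points are above those of 0 and 24 h at all 6 positions, and in the right panel the 3 times stand in order without overlap at positions 1 and 2.

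Norad is read on the minus strand of chromosome 2, in a gene of 4915 bases (chr2:156229985-156234899, GRCm39, as the authors' tables give it). Its region 1, chr2:156233603-156234276, lay 623 to 1296 bases from the gene's 5′ end and had a peak in 5 lists, all but 24 h list 1. Region 2, chr2:156233275-156233492, had a peak in 48 h list 2 only, and region 3, chr2:156231772-156232664, in 0 h list 1 only. The recurrent part of Norad was thus the stretch near its 5′ end, and toward its 3′ end no list had a peak beyond region 3.

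Region 1 of Norad held 2 summit positions, about 762 and 1073 bases from the 5′ end. Position 1 had a fold enrichment of 3.26 and 2.66 at 0 h, 2.66 in 24 h list 2 and 4.03 in 48 h list 2. Position 2 had 3.37 and 2.74 at 0 h, 3.27 in 24 h list 2, and 2.21 and 2.99 at 48 h. At position 2 the 48 h and 0 h lists overlapped. Pull-down fragments at position 2 numbered 152 and 115 at 0 h, 136 in 24 h list 2, and 132 and 100 at 48 h, over an input coverage between 8 and 19 fragments.

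Norad had 4 and 2 summits at 0 h, 0 and 2 at 24 h, then 1 and 3 at 48 h, covering 1563 and 596 bases at 0 h, 0 and 544 bases at 24 h, then 232 and 827 bases at 48 h. The list without a Norad peak was the deepest in pull-down, and its input depth of 73.7% was close to the 80.8% of the other 24 h list. Both Norad summits of 24 h list 2 passed p of 0.005 when fragments and input were scaled down to the list with the shallowest input. This scaling concerns the list that had the peaks, and why 24 h list 1 had none was not tested. On Norad the 24 h lists thus differed from each other in having a peak at all, and each time had at least 1 list with one. No base of Norad was covered in all 6 lists, and 544 of its 1782 covered bases (30.5%) were covered at all 3 times.

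Neat1 is also on chromosome 19. Neither the tables nor the RefSeq table used give its strand, which was taken from general knowledge as the minus strand, as for Malat1. Its peaks fell into a cluster within 2219 bases and a distant pair. Region 1, chr19:5894647-5895300, had a peak in 0 h list 1, both 24 h lists and 48 h list 1. Region 2, chr19:5893081-5894134, had one in both 0 h lists, 24 h list 2 and 48 h list 1. These 2 regions near the 5′ end of the covered part recurred at all 3 times, but neither was present in both lists of every time. Region 3, chr19:5876480-5876743, and region 4, chr19:5875709-5876004, had their summits 18677 and 19412 bases from the 5′-most covered base and came from 48 h list 1 and 0 h list 1 alone.

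**Figure D4:**
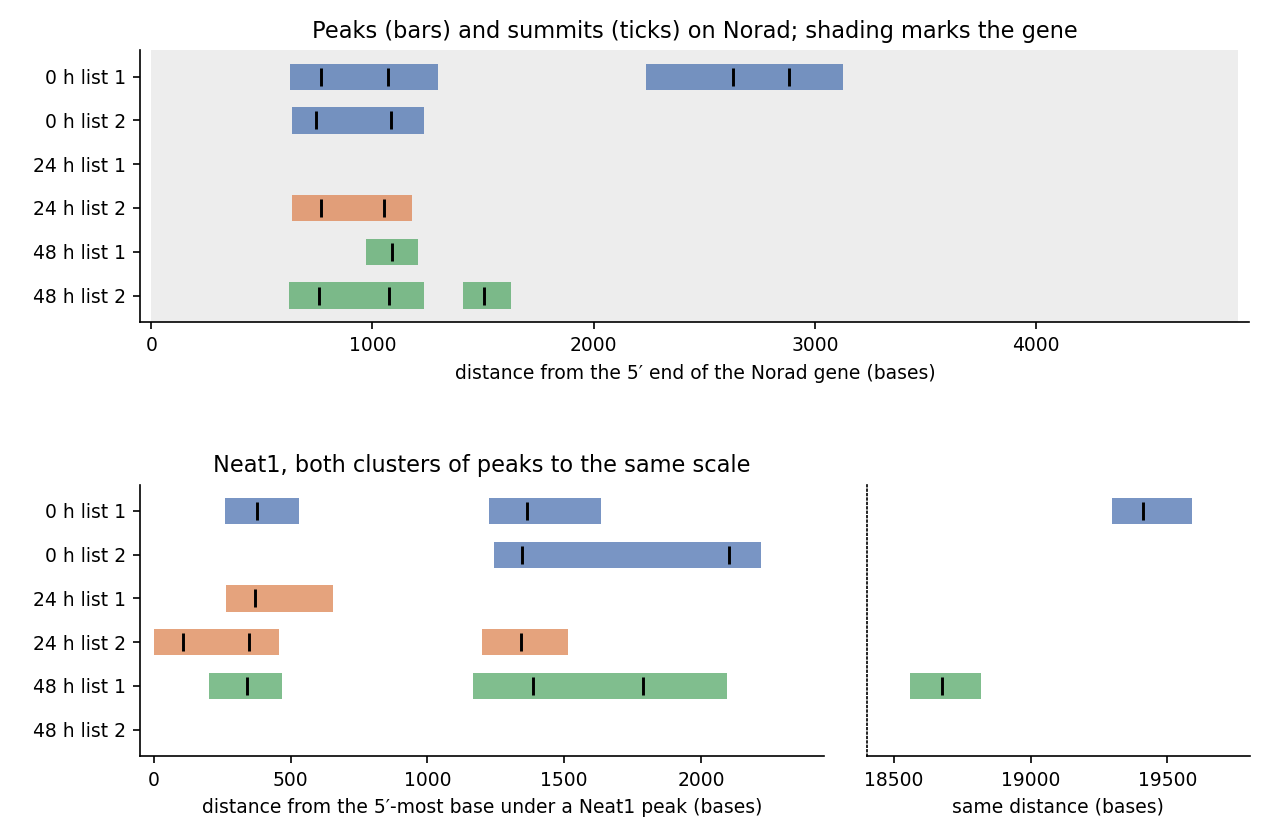
Peaks (bars, coloured by hour) and summits (ticks) per list on Norad, against the distance in bases from its 5′ end, and on Neat1, against the distance in bases from the 5′-most base under a Neat1 peak, with the distant pair in the right panel. Norad has no peak in 24 h list 1 and Neat1 none in 48 h list 2.

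Position 2 of Neat1, about 359 bases from the 5′-most covered base, had a fold enrichment of 2.45 in 0 h list 1, 3.26 and 2.79 at 24 h, then 3.47 in 48 h list 1. Position 3, about 1356 bases from it, had 3.13 and 2.64 at 0 h, 2.96 in 24 h list 2 and 2.65 in 48 h list 1. These are the only Neat1 positions seen in more than 1 list, and only 24 h at position 2 and 0 h at position 3 had a summit in both lists, so the times cannot be set against their own spread. Behind them stood 46 to 81 pull-down fragments at position 2 and 43 to 87 at position 3. The distant summits of regions 3 and 4 rested on 26 and 13 fragments, and both had a q of 1.

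Neat1 had 3 and 2 summits at 0 h, 1 and 3 at 24 h, then 4 and 0 at 48 h, covering 976 and 976 bases at 0 h, 390 and 773 bases at 24 h, then 1458 and 0 bases at 48 h. The 48 h lists were thus the richest and the poorest. The list without a Neat1 peak had the shallowest input and the shallowest pull-down of all. Scaled to that list's depth, 3 of the 4 Neat1 summits of 48 h list 1 still passed p of 0.005, among them those at position 2 (−log10 p of 5.06) and position 3 (4.35). Why 48 h list 2 had no Neat1 peak was not tested. At a q of 0.05 or less no Neat1 region was left at all 3 times, and without 48 h list 1 there was none either.

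Together the 3 RNAs had 6500 and 5011 covered bases at 0 h, 5081 and 4752 at 24 h, then 6119 and 2947 at 48 h. The log2 ratio of the mean was -0.23 for 24 h over 0 h and -0.34 for 48 h over 0 h. The log2 SDs between lists of both times, combined as the root of their summed squares, were 0.27 and 0.79. Both ratios were smaller than this combined spread, which is one of single lists rather than of means. Over all peaks the same log2 ratios were -0.67 and -0.86. The 3 RNAs made up 1.75% and 1.62% of all bases under peaks at 0 h, 2.20% and 2.40% at 24 h, then 3.25% and 1.58% at 48 h. Without 48 h list 2 the 48 h ratio turned to 0.09. Both ratios share the 0 h lists.

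Among the peaks of its list, ranked by p, the strongest Malat1 peak stood at the 99.6 and 99.5 percentile at 0 h, the 99.7 and 99.4 at 24 h, then the 100 and 99.3 at 48 h. The strongest Norad peak stood at the 91.7 and 78.5 percentile at 0 h, the 90.2 in 24 h list 2, and the 56.7 and 89.9 at 48 h. For Neat1 these were the 61.8 and 39.5 percentile at 0 h, the 67.2 and 66.9 at 24 h, then the 69.0 in 48 h list 1. The RNAs kept the order Malat1, Norad, Neat1 in all lists with a peak on each, except 48 h list 1, where Neat1 was above Norad.

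Input coverage was solved from fold enrichment and p, so it is not independent of the order by p and is given as a description. Median input coverage at the summits was 54.5 fragments on Malat1, 17 on Norad and 6.91 on Neat1, against 5.0 over all summits. Median fold enrichment was 2.41 on Malat1, 3.05 on Norad and 2.87 on Neat1, against 2.95 over all. The median Malat1 peak stood at the 98.0 percentile of its list by p and the 97.3 by input coverage, and at the 30.7 by fold enrichment. Norad's median peak stood at the 86.1, 77.7 and 56.6 percentile by p, input and fold enrichment, and Neat1's at the 59.5, 58.3 and 46.8. The part of abundance in the calls was not tested. The authors' q was 0.05 or less at 53 of 61 Malat1 summits, 9 of 12 Norad summits and 5 of 13 Neat1 summits.

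**Figure D5:**
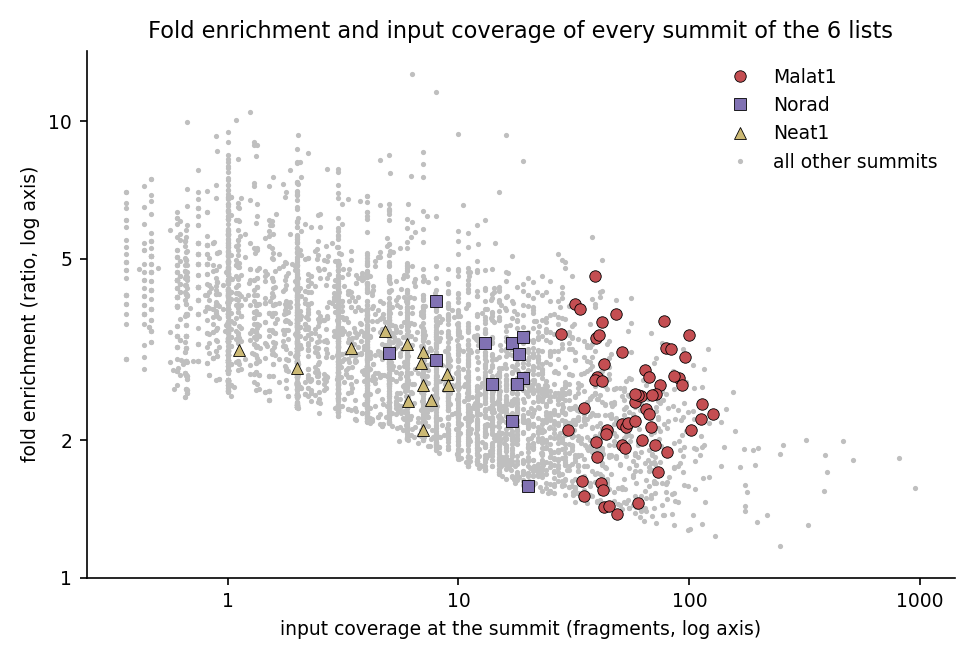
Fold enrichment (ratio, log axis) against input coverage (fragments, log axis) at each of the 5273 summits of the 6 lists; grey points are summits on other genes. Malat1 lies at high input and low to moderate fold enrichment, Norad in between, and Neat1 near the middle of the cloud.

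Other genes share bases with the peaks, and the lists give no strand for a peak, so their RNAs cannot be told apart there. Gm37376 (chr19:5851969-5852421, plus strand) lay under region 1 of Malat1 in all 6 lists, and position 1 fell at its edge. Position 2 and the other recurrent Malat1 positions were outside it. An unnamed gene, ENSMUSG00002076763 (chr19:5894944-5895065), lay under region 1 of Neat1 in 4 lists, and ENSMUSG00002075794 (chr19:5894666-5894775) in 2. The summits of Neat1 position 2 in 24 h list 2 (5894953) and 48 h list 1 (5894961) fell inside the first of these genes, and those in 0 h list 1 (5894923) and 24 h list 1 (5894930) just outside it. ENSMUSG00002076626 (chr19:5849028-5849113) lay under region 3 of Malat1 in both 24 h lists, away from the recurrent summits.

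By the percentile of the strongest peak over the 6 lists, with 0 where a gene had no peak, the genes most like Malat1 were Gm37376, which is called on the same peaks, and Gm22009 and Kpna4, which share a peak with each other (mean absolute difference 0.43 percentile points). Most like Norad were Gm7308 (7.39 points), Atp6v1g1, a subunit of the vacuolar proton pump (8.72 points), and Srsf6, a splicing factor (10.0 points). Neat1 was most like Anp32e, a histone chaperone (6.70 points), mt-Nd2 (8.82 points) and mt-Cytb (10.7 points), both mitochondrial genes. The likeness is over 6 lists and is a description.

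Long noncoding RNAs with a peak were counted as well. By symbol, 46 genes that RefSeq types as long noncoding RNA had a peak in any list, 0.361% of those in its table, and 24 of them were in 1 list only. Those in 4 or more lists were 5: Malat1 and Gm20234 in all 6, Norad and Neat1 in 5 each, and Snhg4 in 4, on a peak it shares with Matr3. Of 62 other named long noncoding RNAs that were looked up, 7 had a peak and none was in all 6 lists. Leading these were 1600010M07Rik and Epb41l4aos in 2 lists each, then A430005L14Rik and Snhg5 in 1 list each, with best fold enrichments of 3.92, 4.91, 4.57 and 4.18. Their best −log10 q values were 5.08, 1.26, 0.76 and 0.61 in the same order, so all but that of 1600010M07Rik were weak calls. The best peak of 1600010M07Rik was centred in intron 2 and overlapped 2 genes, so its RNA cannot be told. RefSeq types A430005L14Rik as protein-coding, so it is not among the 46.

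Genes of the proteins that work with these RNAs had peaks too. The share of protein-coding genes with a peak in any list, 8.14%, is over all that RefSeq lists, which include genes that macrophages do not express. Over all genes, 951 and 836 had a peak at 0 h, 623 and 571 at 24 h, then 606 and 531 at 48 h, and the counts per list below stand against these. Paraspeckle proteins, the partners of Neat1, had a peak on 11 of 20 genes, with 9 and 6 at 0 h, 3 and 4 at 24 h, then 3 and 4 at 48 h. Among them Hnrnpk, an RNA-binding protein, had a peak in all 6 lists (best fold enrichment 3.55), Hnrnpm, a splicing regulator, in 5 (5.80), Matr3, a nuclear matrix protein, in 4 (5.08) and Smarca4, a chromatin remodeler, in 3 (2.33). Neat1 itself, by comparison, had peaks in 5 lists.

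Nuclear speckle proteins, which gather where Malat1 does, had a peak on 18 of 25 messenger RNAs, with 11 and 9 at 0 h, 5 and 3 at 24 h, then 9 and 7 at 48 h. Rbm25, a splicing regulator, had a best fold enrichment of 9.97, Srsf6 3.68 and Sf3b1, a core component of the spliceosome, 7.26, each with peaks in 5 lists, and Srsf1, another splicing factor, had 3.88 with peaks in 4. Among proteins known to bind Norad, Khdrbs1 had a peak on its messenger RNA in 3 lists (best fold enrichment 5.13) and Pum2 in 2 (7.26). None of 14 genes listed for the 3′ end processing and triple helix of Malat1 and Neat1 had a peak in any list.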

How the data were processed

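The 6 deposited tables are lists of peaks, 2 for each time, with 1 line per summit and overlapped gene. The submitters' processing notes name BWA 0.7.12 as well as MACS2 2.1.0, with the build GRCm39. No settings and no control library are stated in the labels or headers. Per the file headers, fold enrichment is a ratio at the summit that the authors computed. The authors deposited each p and q value on the −log10 scale. The lowest −log10 p of a list was 2.30 to 2.33, near p of 0.005. BWA does not align across splice junctions.

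A peak is 1 chromosome, start and end; starts may be off by 1 base, since their counting is not stated. The strand of Malat1 is RefSeq's (GRCm38.p6), used for distances, and that of Neat1 was taken from general knowledge; 1978 of 2102 gene symbols matched RefSeq. Fragments and input coverage were solved from fold enrichment and p with 1 depth factor per list, which matched 100% of summits within 0.005 of −log10 p; 73 of the 86 summits had a single solution (otherwise the closest was taken), and the step was tested on simulated data. Genome background is the lowest input coverage of a list. Python 3.11.15, numpy 2.4.6, pandas 2.3.3, scipy 1.17.1 and matplotlib 3.10.9 were used. The members, the gene lists and the markers were chosen with earlier results of these data known; the window of 100 bases for summit positions was chosen after seeing the data. From each gene list, up to 4 genes with peaks in most lists are named, and for each RNA the 3 genes most like it. The total RNA samples were not analysed separately. No sequence is printed, since no genome of this build was used here. One gene of the list of Norad-binding proteins is not reported here.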

Additional observations from a re-analysis of the deposited data

How the results depend on the processing

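The number of merged regions at all 3 times, 8 as reported, was 8 at a fold enrichment of 2 or more, with an overlap of 50% of the shorter peak, and with the peak centre in the gene. It was 7 with lists of equal length (611 peaks each) and with input coverage scaled to the shallowest list, and 6 with only peaks of q up to 0.05, or up to 1e-05. Leaving out 1 list gave 5 to 8, with 5 without 48 h list 1. Regions in any list, 12 as reported, numbered 7 at a q of 1e-05 or less and 10 to 12 when 1 list was left out. Malat1 kept a count of 5 regions at all 3 times under each threshold, length, depth, overlap and centre setting, and 4 or 5 when 1 list was left out. Neat1 had 2 as reported, 1 with equal length or scaled input, 0 at either q, and 0 to 2 when 1 list was left out. Norad had 1 as reported and 0 without 24 h list 2. The log2 ratio of covered bases ran between -0.40 and -0.03 (24 h over 0 h) and between -0.97 and 0.09 (48 h over 0 h) when 1 list was left out. A window of 50 or 150 bases gave 13 or 14 summit positions at all 3 times, against 14. No paired analysis was possible because the lists carry an hour and a number that no label ties to a sample. Neat1's summits rest on 13 to 87 pull-down fragments. Intervals for counting error were not computed, as duplicates cannot be told from separate molecules.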

Other observations

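Region 4 of Malat1, and its summit positions 7, 9 and 12, were seen in list 1 of each time and in list 2 of none. At position 12 the fold enrichment was 2.86 in 0 h list 1, 2.95 in 24 h list 1 and 3.97 in 48 h list 1, with 426, 435 and 444 pull-down fragments, and the 3 summits lay within 4 bases. No label says that a list's number marks a shared culture or batch, and whether it does was not tested.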
